A study of Homo sapiens with 4 samples.

Results

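The contactins, the neural cell adhesion molecules (NCAMs) and the L1 family are cell-surface proteins of the immunoglobulin superfamily, known mainly from neurons and glia. A total of 10 of their genes were chosen by name, CNTN1 to CNTN6, NCAM1, NCAM2, L1CAM and CHL1, and each had 1 row among the 25690 gene rows of the count table. Their RNA was measured by sequencing of polyA-selected libraries of H9, an established human embryonic stem cell line, on day 7, in cells that the series describes as non-neural ectoderm. There were 2 wild-type (WT) libraries and 2 whose genotype label reads TFAP2A knockout, and the labels used here give no culture conditions, clone or guide for either. The members were chosen with the contrast between these genotypes in view, so their differences are given as descriptions, without a test.

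Contactins carry immunoglobulin and fibronectin type III domains and are held at the membrane by a lipid (GPI) anchor, so they act through partners such as the contactin-associated proteins, receptor phosphatases and members of the amyloid precursor protein family. NCAM and L1 family proteins mostly span the membrane, bind themselves or one another on neighbouring cells, and connect to FGF receptors, Src-family kinases and, in the L1 family, ankyrin and spectrin. NCAM1 is also the main carrier of polysialic acid, a sugar chain that weakens its adhesion. In the early embryo NCAM1 is known as a marker of the neural plate, while the surface ectoderm is known for E-cadherin and keratins.

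The libraries held 17838204 to 21797850 estimated counts each. The labels do not say whether 2 libraries of the same genotype are separate cultures, so every error and p-value here covers only the spread of these libraries, and that spread may be purely technical. The record is in conflict on the gene knocked out: the titles of both libraries labelled TFAP2A knockout call them TFAP2C knockouts. The genotype label was used here. The label itself was checked only in part. TFAP2A was at 171 and 198 CPM (counts scaled to library size) in WT, compared with 133 and 121 CPM in the libraries labelled knockout, TFAP2B at 274 ± 18.3 against 43.1 ± 3.66 CPM and TFAP2C, which the sample titles name, at 29.04 ± 2.16 against 7.34 ± 2.22 CPM (mean ± SD, n = 2, WT first). Counts per gene do not show where in TFAP2A its remaining reads lie, so a direction is that of the libraries labelled knockout. A log2 fold change is knockout over WT, with its standard error (SE).

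Of the 10 members, 8 had enough counts to enter the gene-wise fit, and CNTN3 and CHL1 did not. CNTN2 entered through its WT libraries, while CNTN6 had enough counts for the filter in either genotype. In that fit 2 members were on the higher and 5 on the lower side of an adjusted p of 0.05, and CNTN5 was on neither. Of all 15643 genes tested, 44.2% passed that threshold, 21.9% as higher and 22.3% as lower. Since the genotype contrast was used to choose the members, nothing is read from their count. The libraries of the genotypes did not overlap in 7 of the 8 members and in 73.1% of all genes tested. The median log2 fold change was -0.75 over the 8 members and 0.00 over all genes tested.

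**Figure D1:**
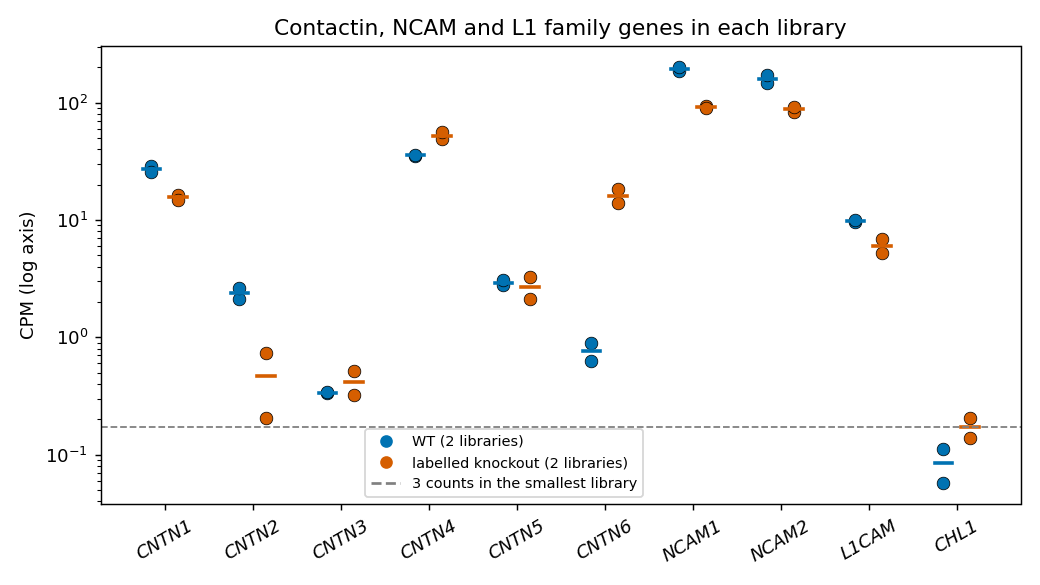
CPM (log axis) of each member in each library, WT in blue and the libraries labelled knockout in orange; horizontal bars are means of 2 libraries and the dashed line is the level of 3 counts in the smallest library. CNTN6 is the member whose genotypes lie farthest apart, at 0.624 and 0.895 CPM against 13.9 and 18.4 CPM, and CHL1 lies around the dashed line; heights compare a gene between libraries, not genes of different length.

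CNTN6 showed the widest separation of the genotypes. It encodes contactin-6 (NB-3), a neuronal contactin known from the cerebellum and from oligodendrocyte maturation. Its row spans 1134342 to 1445292 on the plus strand of chromosome 3 (hg19). The WT libraries held 16.5 and 11 counts of it (0.895 and 0.624 CPM), and those labelled knockout held 272.5 and 402.5 (13.9 and 18.4 CPM). Both WT libraries were low and both libraries labelled knockout were high, with no overlap. The fitted log2 fold change was 4.40 (SE 0.23), a 21.1-fold higher level in the libraries labelled knockout.

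CNTN4, the next member on the same chromosome (2140550 to 3099645, plus strand, hg19), encodes contactin-4, which binds amyloid precursor family proteins and is known from the wiring of sensory axons. It was at 35.3 and 36.2 CPM in WT, compared with 48.7 and 56.3 CPM in the libraries labelled knockout. It was thus expressed in every library, with a smaller step between genotypes than CNTN6, of 0.56 on the log2 scale (SE 0.08), or 1.47-fold. CNTN6 and CNTN4 were the members that were higher in the libraries labelled knockout among the 8 in the fit.

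CNTN1 encodes contactin-1, the partner of CNTNAP1 at the paranodal junctions of myelinated axons. Its row lies on chromosome 12 (41086244 to 41466213, plus strand, hg19). It was at 28.8 and 25.6 CPM in WT, compared with 16.4 and 14.8 CPM in the libraries labelled knockout. Both libraries of the latter were below both of WT, with a log2 fold change of -0.80 (SE 0.10).

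CNTN2 encodes contactin-2 (TAG-1), the partner of CNTNAP2 beside the nodes of myelinated axons and an early marker of growing commissural axons. Its row lies on chromosome 1 (205012340 to 205047171, plus strand, hg19). It was low throughout, with 2.13 and 2.61 CPM in WT (37.5 and 46 counts), compared with 0.205 and 0.733 CPM in the libraries labelled knockout (4.5 and 16 counts). The libraries labelled knockout lay below WT but differed from each other by more than the WT pair did. The level in WT was 4.86-fold higher (log2 fold change -2.28, SE 0.41), 3.20-fold without knockout replicate 1 and 11.2-fold without knockout replicate 2.

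CNTN5 and CNTN3 did not separate the genotypes. CNTN5 encodes contactin-5, known from the auditory pathway, and was at 2.80 and 3.06 CPM in WT, compared with 3.28 and 2.11 CPM in the libraries labelled knockout. The latter lay on either side of WT (log2 fold change -0.13, SE 0.25), and the sign turned when single libraries were left out, over a range of -0.47 to 0.16. The negative end came without knockout replicate 1 and the positive end without knockout replicate 2. CNTN3, which encodes contactin-3, had 12 counts over the WT libraries and 17.5 over those labelled knockout, a ratio of 1.25 after scaling (95% exact counting interval 0.567 to 2.86). Intervals and floors cover counting error only.

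The promoters of CNTN6, CNTN4 and CNTN2, the contactins with the highest and lowest fold changes, are printed because the labelled knockout is of an AP-2 factor and the consensus of AP-2 is short enough to look for. The letters GCCNNNGGC were searched on both strands, which for this palindromic pattern is the same search, and with no other motif. RefSeq promoter windows (GRCh38.p14) of 300 bases, from 250 before to 50 after a gene start, were found for 9 of the 10 members, 15 windows in all. Capitals mark a match, and each window is on the plus strand, 5′ to 3′.
CNTN6 chr3:1092774-1093073: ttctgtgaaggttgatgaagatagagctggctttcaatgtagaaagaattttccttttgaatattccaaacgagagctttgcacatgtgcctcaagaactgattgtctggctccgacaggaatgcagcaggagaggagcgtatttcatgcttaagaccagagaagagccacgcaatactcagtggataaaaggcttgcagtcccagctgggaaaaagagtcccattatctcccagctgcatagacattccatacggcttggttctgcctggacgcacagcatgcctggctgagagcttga
CNTN4 chr3:2098616-2098915: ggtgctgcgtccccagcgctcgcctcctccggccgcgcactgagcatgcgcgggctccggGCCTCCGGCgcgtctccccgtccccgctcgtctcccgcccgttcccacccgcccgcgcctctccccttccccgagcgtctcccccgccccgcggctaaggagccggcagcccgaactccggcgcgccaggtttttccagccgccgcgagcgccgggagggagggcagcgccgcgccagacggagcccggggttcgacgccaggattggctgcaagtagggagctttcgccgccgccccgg
CNTN2 chr1:205042699-205042998: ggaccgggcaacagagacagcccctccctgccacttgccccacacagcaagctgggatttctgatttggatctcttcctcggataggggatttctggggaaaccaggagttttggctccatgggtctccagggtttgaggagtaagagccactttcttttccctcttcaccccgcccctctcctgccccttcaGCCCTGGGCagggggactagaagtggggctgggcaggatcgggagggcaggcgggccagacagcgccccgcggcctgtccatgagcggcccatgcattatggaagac

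The CNTN4 window held 1 match, beginning 190 bases before the start, and the CNTN2 window 1, beginning 57 bases before it. The CNTN6 window held none of these letters, nor did a second window of CNTN4 and of CNTN2. These 3 windows also differ in base composition, with a GC content of 47.3% in that of CNTN6, 77.3% in that of CNTN4 and 61.7% in that of CNTN2. Over the members, 5 of 15 windows (33.3%) held a match, the others in CNTN3 (1 window) and CHL1 (2 windows), against 23.2% of 35116 windows of all genes. None of the windows of CNTN1, CNTN5, NCAM2 and L1CAM held one. NCAM1 was the member without a window, so its promoter was not searched. The counts per gene do not show which start a transcript used.

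Together the contactins summed to 70.3 and 68.4 CPM in WT and to 83.0 and 92.8 CPM in the libraries labelled knockout, so the sum hides a change of makeup. Levels of different members were compared only per kilobase of the longest protein-coding GENCODE transcript, apart from a check with the median length. On that scale CNTN1 made up 40.0% and 36.6% of the contactin sum in WT, compared with 18.4% and 14.8% in the libraries labelled knockout. CNTN6 made up 1.53% and 1.10% in WT, compared with 19.2% and 22.6% in the libraries labelled knockout. CNTN4 held the largest share in every library, between 52.5% and 59.9%. The ratio of CNTN4 to CNTN1 per kilobase was 1.31 and 1.51 in WT, compared with 3.16 and 4.06 in the libraries labelled knockout. These shares and ratios depend on the length used. With the median transcript length, mean CPM per kilobase in WT and the libraries labelled knockout was 23.5 and 34.4 for CNTN4. It was 8.97 and 5.16 for CNTN1, and 0.182 and 3.89 for CNTN6. The shares of CNTN1 and CNTN6 were then smaller and that of CNTN4 larger in both genotypes.

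**Figure D2:**
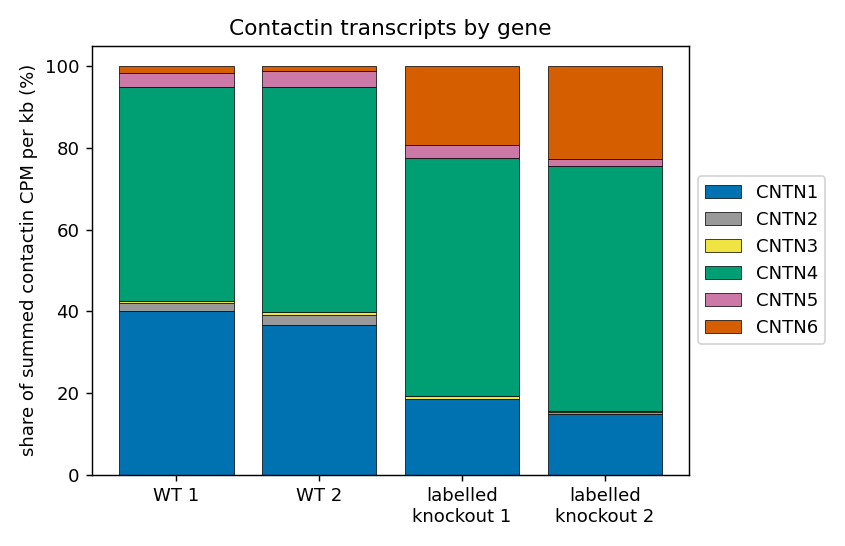
Share (%) of each contactin gene in the summed contactin CPM per kilobase of the longest transcript, 1 bar for each of the 4 libraries; the shares depend on that choice of length. CNTN6 takes 19.2% and 22.6% in the libraries labelled knockout and 1.53% and 1.10% in WT, while CNTN1 goes from 40.0% and 36.6% in WT to 18.4% and 14.8%.

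NCAM1 and NCAM2 were both lower in the libraries labelled knockout, and NCAM1 had the highest level of the members per kilobase in both genotypes. NCAM1 (chromosome 11, 112831969 to 113149158, plus strand, hg19) encodes the founding member of the NCAMs. It was at 188 and 203 CPM in WT, compared with 93.9 and 89.5 CPM in the libraries labelled knockout. Replicates lay close together and the genotypes well apart, with a log2 fold change of -1.09 (SE 0.06), or 2.13-fold. NCAM2 (chromosome 21, 22370633 to 22912517, plus strand, hg19) encodes a paralogue known from olfactory axons. It was at 148 and 173 CPM in WT, compared with 83.6 and 92.1 CPM in the libraries labelled knockout, without overlap (log2 fold change -0.87, SE 0.08). The ratio of NCAM1 to NCAM2 per kilobase was 1.71 and 1.58 in WT, compared with 1.51 and 1.31 in the libraries labelled knockout. In bulk RNA, fewer cells that express a gene and less of its RNA in each cell cannot be told apart.

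L1CAM encodes the founding L1 protein, which guides and bundles axons. Its row lies on the X chromosome (153126969 to 153141399, minus strand, hg19). It was at 9.67 and 9.98 CPM in WT, compared with 5.22 and 6.83 CPM in the libraries labelled knockout, without overlap (log2 fold change -0.70, SE 0.16). CHL1, the close homologue of L1 on chromosome 3 (238279 to 451097, plus strand, hg19), was near the limit of detection, with 1.5 and 1 counts in WT, compared with 4.5 and 3 in the libraries labelled knockout. The ratio, 2.58, had an exact 95% counting interval of 0.559 to 18.6, so a difference was not detectable at this depth. The remaining L1 family genes, NRCAM and NFASC, whose proteins gather at nodes and initial segments of axons, did not pass the test. NRCAM was at 4.84 ± 1.23 CPM in WT and 5.82 ± 0.262 CPM in the libraries labelled knockout (edgeR's quasi-likelihood test, adjusted p = 0.288), and NFASC at 1.63 ± 0.0636 and 1.58 ± 0.808 CPM (adjusted p = 0.893), with n = 2 each.

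In the order of levels per kilobase, NCAM1 (32.3 ± 1.71 CPM per kilobase, n = 2) and NCAM2 (19.7 ± 2.20) led in WT, followed by CNTN4 (6.88 ± 0.114), CNTN1 (4.90 ± 0.403) and L1CAM (1.91 ± 0.0421). CNTN5 (0.468 ± 0.0301), CNTN2 (0.296 ± 0.0427), CNTN6 (0.168 ± 0.0425), CNTN3 (0.0683 ± 0.000673) and CHL1 (0.0105 ± 0.00486) followed. In WT all neighbours in that order lay further apart than the sum of their SDs. The SD of CNTN3 comes from 6.5 and 5.5 counts that were rounded to the same number, and it is smaller than counting error. At counts as low as those of CNTN3 and CHL1, distances in SDs do not secure a place in the order. In the libraries labelled knockout NCAM1 (15.2 ± 0.522), NCAM2 (10.8 ± 0.742) and CNTN4 (10.1 ± 1.04) led, and NCAM2 and CNTN4 differed by less than their spread. CNTN6 (3.58 ± 0.704) came next, ahead of CNTN1 (2.82 ± 0.202) by less than their spread, then L1CAM (1.17 ± 0.221) and CNTN5 (0.43 ± 0.132). CNTN3 (0.0842 ± 0.0273) and CNTN2 (0.0586 ± 0.0467) were not apart beyond their spread, and CHL1 (0.0213 ± 0.00594) was not apart from CNTN2. CNTN6 moved from the eighth place to the fourth and CNTN2 from the seventh to the ninth. The length matters for this order. With the median transcript length of each gene, L1CAM passed CNTN1 and CHL1 passed CNTN3 in both genotypes. In the libraries labelled knockout CNTN4 also passed NCAM2, CHL1 passed CNTN2, and CNTN6 was in the sixth place.

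The neighbourhood of the members was described next, since position played no part in choosing them. CHL1, CNTN6 and CNTN4 follow one another on chromosome 3, with gaps of 683 kb and 695 kb between their rows. The 3 nearest tested genes beyond CNTN4 were TRNT1, which was at 10.9 CPM in WT and 14.1 CPM in the libraries labelled knockout (log2 fold change 0.38, adjusted p = 0.0251), CRBN (0.23, adjusted p = 0.027) and LRRN1, which fell (-0.70), so the step of CNTN6 was not shared in size by any of them. Over all genes tested, 21.9% were higher. Around CNTN2, 5 of the 6 nearest tested genes rose, which runs against CNTN2 itself. Of these, MDM4, RBBP5, DSTYK and TMEM81 had log2 fold changes of 0.54 to 0.71, and LRRN2 went from 2.93 ± 0.13 to 27.3 ± 0.388 CPM (3.22). The nearest tested genes at NCAM1 and NCAM2 mostly did not pass. At NCAM1 2 of 6 were lower (PTS and BCO2, 727 and 742 kb away). At NCAM2 1 of 6 was higher (C21orf91, 3179 kb away), and the nearest tested gene, CHODL, was 2731 kb away. Beside L1CAM, PDZD4 was lower (-0.65, adjusted p = 0.0096) and the other 5 did not pass. Over all 46 neighbours that are no members, 14 were higher, 8 lower and 24 did not pass, with a median log2 fold change of 0.13. The shares over all genes tested were 21.9% higher and 22.3% lower, and no direction is read from the counts of neighbours.

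**Figure D3:**
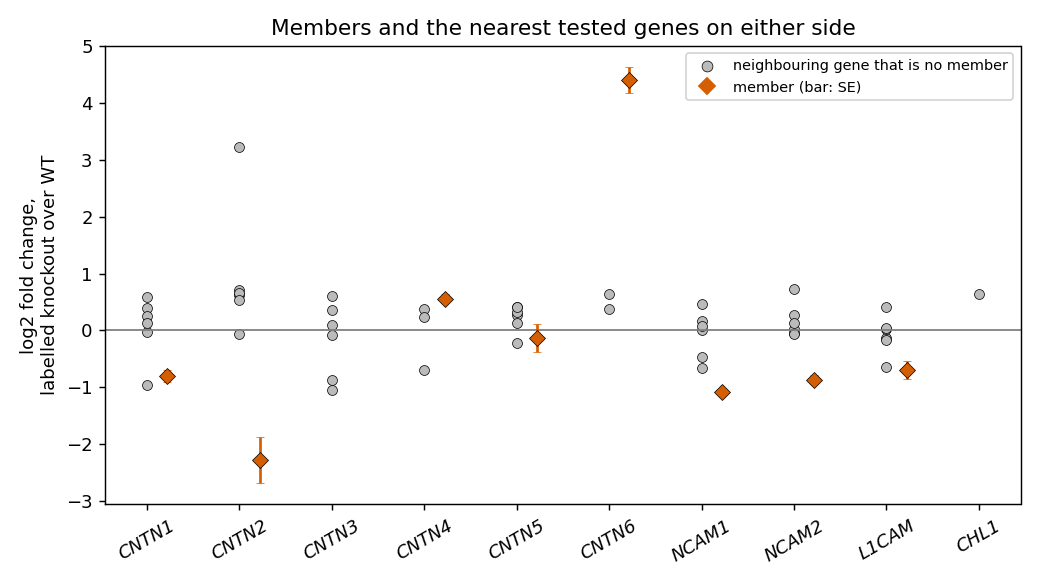
Log2 fold change of each member in the fit (orange diamonds, bars are SE) and of up to 3 nearest tested genes on each side of it that are no members (grey points). CNTN2, at -2.28, lies below its neighbours, 5 of 6 of which were higher, and CNTN6, at 4.40, lies above its own. Over all genes tested, 21.9% were higher.

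Antisense genes overlap 3 of the members, NCAM1, CNTN4 and CHL1. NCAM1-AS1 lies inside the row of NCAM1 and fell as well, from 7.66 ± 0.713 to 3.29 ± 0.122 CPM (n = 2, edgeR, adjusted p = 6.11e-05). CNTN4-AS1 overlaps the end of CNTN4 and was at 1.86 ± 0.539 and 2.90 ± 0.183 CPM (adjusted p = 0.0566), but passed without WT replicate 1 (0.0373), with upper quartile scaling (0.0496) and without the low-count filter (0.0452). No source used here gives the strand setting of the counting, so reads of these overlaps cannot be assigned to one gene or the other. CHL1-AS1 had a count of 0 in each of the 4 libraries, so up to 0.137 to 0.17 CPM (3 counts) could have gone undetected, and CNTN4-AS2, which lies inside CNTN4, had 0 and 0.5 counts in WT and 1 count in each library labelled knockout.

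The partners and modifiers of these proteins were taken from lists of 75 genes, of which 74 were in the table and 67 were tested. Of these, 19 rose, 22 fell and the rest did not pass, against 21.9% higher and 22.3% lower over all genes tested. The median log2 fold change was 0.01, as against 0.00 over all genes. The lists were chosen with earlier results of these data known, so no direction is read from the counts of any list. Adjusted p-values are over all genes tested, by edgeR's quasi-likelihood test, with n = 2 per genotype.

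Among extracellular partners, 4 of 10 tested rose and 4 fell, with a median of 0.16, against 21.9% higher and 22.3% lower over all genes tested. Contactin-associated proteins, the neurexin-like partners of contactins, made up most of the rises. CNTNAP4 went from 1.79 and 1.36 CPM in WT to 17.4 and 23.1 CPM (log2 fold change 3.68, SE 0.20, adjusted p = 6.59e-09). CNTNAP2, the partner of contactin-2, went from 14.2 ± 1.61 to 36.7 ± 11.0 CPM (1.37, adjusted p = 0.0302), and did not pass once WT replicate 1 (adjusted p = 0.0621) or WT replicate 2 (0.183) was left out, without the low-count filter (0.101) or with limma-voom (0.0543). CNTNAP1, named after its value was seen, went from 7.12 to 11.3 CPM (adjusted p = 0.00156). CNTNAP3, also named after its value was seen, fell from 0.985 to 0.363 CPM, which did not hold without WT replicate 1 (adjusted p = 0.111), knockout replicate 1 (0.0856) or knockout replicate 2 (0.0897), or with DESeq2 (0.172). CNTNAP3 had 7 and 8 counts in the libraries labelled knockout and entered the fit through WT. The amyloid precursor family, which includes partners of contactin-4, split. APP fell from 850 ± 16.2 to 638 ± 7.13 CPM (adjusted p = 9.77e-06) and APLP2 from 701 ± 16.0 to 554 ± 2.58 CPM, while APLP1 went from 31.1 ± 2.96 to 57.6 ± 12.0 CPM (adjusted p = 0.0102, but 0.0518 without WT replicate 2 and 0.0716 without the low-count filter). TNC, the matrix glycoprotein tenascin-C that binds contactin-1, was at 201 ± 29.3 and 31.6 ± 11.9 CPM (-2.68, adjusted p = 0.0373), a call lost without WT replicate 1 (0.112) or 2 (0.188) and with the replicate number as a block (0.0573).

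Of the receptors and cytoskeletal links of NCAM and L1, 8 of 20 tested were lower and 2 higher (median -0.17). Over all genes tested, 22.3% were lower and 21.9% higher. FGFR2, which encodes an FGF receptor, fell from 241 and 236 CPM to 106 and 94.0 CPM (-1.26, adjusted p = 6.8e-10), and FGFR3 from 79.8 ± 6.86 to 37.8 ± 5.09 CPM (-1.08). FGFR1 and FGFR4, named after their values were seen, did not pass. FGFR1 was at 305 ± 8.34 and 289 ± 5.63 CPM (adjusted p = 0.21) and FGFR4 at 17.3 and 14.6 CPM (0.0825). The 3 ankyrin genes, whose products tie L1 proteins to spectrin, fell too. ANK1 fell from 3.27 ± 0.191 to 1.24 ± 0.131 CPM (-1.40, adjusted p = 0.00041). SPTAN1, the spectrin gene with the highest mean CPM of the list over the 4 libraries (not scaled to length), was at 639 ± 10.8 and 643 ± 31.4 CPM (adjusted p = 0.907). GFRA1, which encodes the GDNF co-receptor that can pair with NCAM1, went from 70.1 to 82.1 CPM (adjusted p = 0.00939), a call lost without WT replicate 1 (0.115) or knockout replicate 1 (0.0542). ITGB1, the beta-1 integrin gene, went from 242 to 275 CPM (adjusted p = 0.0123), lost without WT replicate 2 (0.147) or knockout replicate 1 (0.0731).

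Enzymes that modify or shed these proteins moved both ways, with 3 of 9 higher and 2 lower (median 0.19). Over all genes tested, 21.9% were higher and 22.3% lower. Of the polysialyltransferases of NCAM1, ST8SIA4 rose from 0.391 and 0.454 CPM to 1.59 and 1.83 CPM (4.01-fold, adjusted p = 0.000551). It had 7 and 7.5 counts in WT and entered the fit through the libraries labelled knockout, with 31 and 39.5 counts. ST8SIA2 was at 19.6 ± 1.56 and 24.0 ± 2.16 CPM (adjusted p = 0.0343), a call lost without WT replicate 2 (0.226) or knockout replicate 1 (0.217) and with DESeq2 (0.144). ST8SIA3, a related sialyltransferase, fell from 1.23 and 1.02 CPM to 0.102 and 0.0917 CPM (adjusted p = 0.000181). It had 21.5 and 17.5 counts in WT, through which it entered the fit. The libraries labelled knockout held 2.5 and 2 counts, below the floor of 3 counts. ADAM10, which encodes a protease that sheds L1 and NCAM ectodomains, went from 93.5 ± 2.79 to 109 ± 8.21 CPM (adjusted p = 0.0116), lost without WT replicate 1 (0.109) or knockout replicate 1 (0.128). BACE1, the beta-secretase gene, was at 96.4 and 86.3 CPM (adjusted p = 0.0427), a call lost without any 1 of the 4 libraries (adjusted p = 0.0572 without WT replicate 1, 0.247 without WT replicate 2, 0.183 without knockout replicate 1 and 0.0773 without knockout replicate 2), and also with upper quartile scaling (0.0674), the replicate block (0.0598) and DESeq2 (0.159).

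The IgLON genes encode small GPI-anchored adhesion proteins of neurons. OPCML fell from 4.70 and 4.25 CPM to 1.13 and 0.642 CPM (-2.35, SE 0.28, adjusted p = 8.12e-06), and NTM from 4.34 ± 0.60 to 1.64 ± 0.436 CPM (adjusted p = 0.000307). LSAMP went from 8.58 ± 0.592 to 14.1 ± 3.68 CPM (adjusted p = 0.00561, and 0.0531 without knockout replicate 1). IGLON5 was at 44.7 ± 7.68 and 24.9 ± 6.02 CPM (adjusted p = 0.0641) and did not pass, but it did without any 1 of the 4 libraries (0.0336 without WT replicate 1, 0.00847 without WT replicate 2, 0.029 without knockout replicate 1 and 0.00324 without knockout replicate 2), with DESeq2 (0.0175) and with limma-voom (0.0382). NEGR1 was at 0.617 and 0.71 CPM (0.793) and did not pass. The list thus had 1 higher, 2 lower and a median of -0.84, against 21.9% higher and 22.3% lower over all genes tested.

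Of 19 other immunoglobulin adhesion genes tested, 9 rose and 5 fell (median 0.08), against 21.9% higher and 22.3% lower over all genes tested. ALCAM, a heterophilic and homophilic adhesion molecule, rose from 130 and 127 CPM to 319 and 298 CPM (1.26, adjusted p = 2.16e-10). KIRREL3, of the nephrin-related family, rose from 1.35 ± 0.465 to 7.96 ± 1.12 CPM (2.56, adjusted p = 7.39e-07). KIRREL2 was at 1.21 and 2.14 CPM (adjusted p = 0.0293), a call lost without WT replicate 1 (0.107), WT replicate 2 (0.114) or knockout replicate 2 (0.205), with the replicate block (0.0542) and with DESeq2 (0.228). The falls included NECTIN4, an epithelial nectin, from 39.5 and 45.6 CPM to 7.78 and 6.05 CPM (-2.63, adjusted p = 1.72e-09), NECTIN1, from 191 ± 15.9 to 108 ± 3.39 CPM, and SDK1, from 85.2 ± 8.01 to 48.5 ± 2.59 CPM. BCAM, with the highest mean CPM of this list over the 4 libraries (not scaled to length), fell from 435 ± 0.654 to 290 ± 26.7 CPM (-0.59, adjusted p = 3.13e-06). In the libraries labelled knockout it was below others of the list, such as CADM1 at 336 CPM. THY1, named after its value was seen, fell from 135 to 82.0 CPM and completed the falls.

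**Figure D4:**
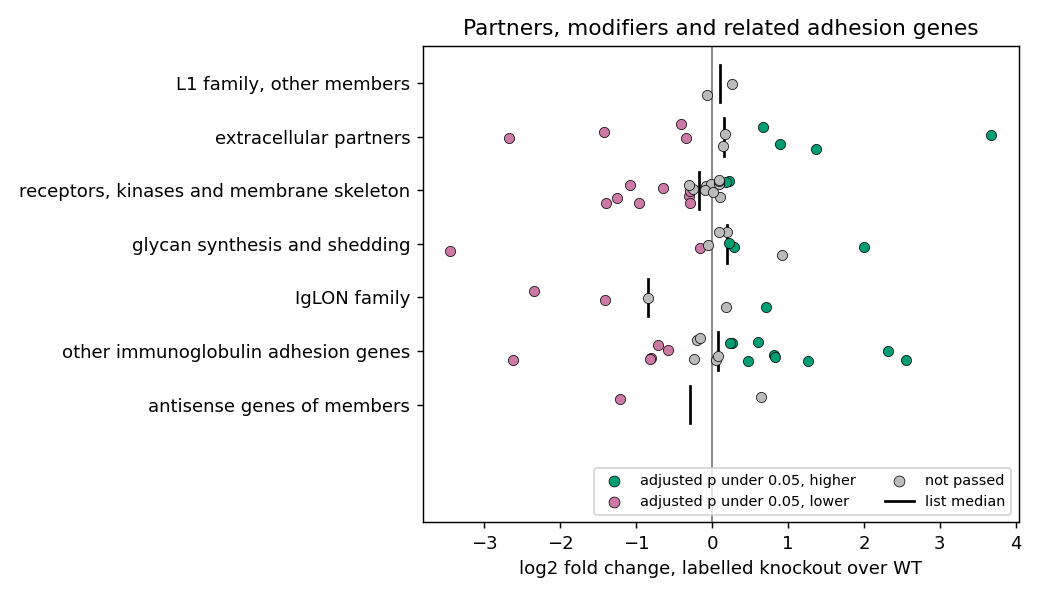
Log2 fold change (libraries labelled knockout over WT) of the 67 tested genes in 7 lists of partners, modifiers and related genes; points are genes, coloured by the edgeR call, and black lines are list medians. Most lists hold calls in both directions, 19 higher and 22 lower in all, against 21.9% higher and 22.3% lower over all genes tested.

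Markers of the cell types in which these adhesion genes are known were read beside them. Over all genes tested, 21.9% were higher and 22.3% lower, and nothing is read from the counts of these short lists. Among 10 neuron markers, 8 were tested and 3 were higher (ELAVL3, MAPT and SNAP25), and their summed level was 507 and 510 CPM in WT, compared with 525 and 566 CPM in the libraries labelled knockout, nearly all of it DCX. STMN2 and ELAVL4, defining genes of neurons, were below 1 CPM in every library. Of 7 neural progenitor markers, 6 were tested, with 5 higher and NES lower, and the sum fell with NES, from 284 and 271 to 202 and 190 CPM. Among 6 markers of neural crest and glia, S100B, SOX10 and FOXD3 were below 1 CPM in every library, and none of the 3 tested passed. ERBB3 made up nearly all of the summed level of that list, at 106 and 110 CPM in WT and 100 CPM in each library labelled knockout. The 7 surface ectoderm markers summed to 2868 and 3117 CPM in WT, compared with 2199 and 2137 CPM in the libraries labelled knockout, with 4 lower, among them CDH1, from 423 to 234 CPM. Mesenchyme markers had 4 of 6 lower and endothelial markers 2 of 3 lower, while PECAM1 had 0 counts. Of 5 muscle markers, 3 were tested, 1 of them higher and 1 lower, and neither of the 2 tested pluripotency markers of 4 passed. Marker calls were not examined under other settings or without single libraries, and SOX2 passed at an adjusted p of 0.0399 by edgeR's test. ELAVL3, with 6 counts in each WT library, and SOX1, with 1 count in each, entered the fit through the libraries labelled knockout. CDH5 and NKX2-5, both called lower, entered it through WT. The part of these cell types in the members' levels was not tested.

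For the 6 members with a mean of at least 5 CPM over the 4 libraries, the genes most like each were those at the smallest distance over the 4 libraries between log2 CPM values centred on their mean, among 15572 genes with counts in every library. For CNTN6 they were TYRP1 (distance 0.28), a melanosomal enzyme gene that was at 1.41 ± 0.384 and 26.5 ± 0.998 CPM, and SYT11 (0.50). For CNTN4 they were PER3 and HOXA-AS2, and for CNTN1 they were GNG2 and MIR6073, the latter at a level below 1 CPM in both genotypes. NCAM1 was nearest to ABCA1 and MSX2 (294.5 ± 13.0 and 136 ± 6.94 CPM), NCAM2 to IQSEC2 and LRSAM1, and L1CAM to KCTD12 and RPP25. With 4 libraries this measure mostly ranks genes by the size of their step between genotypes.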

How the data were processed

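The authors deposited a table of estimated counts per gene for 4 libraries, 2 per genotype. TopHat, HOMER, DESeq2 and the build hg38 are named, without versions, in the submitters' processing notes, and no source used here gives the annotation or strand setting. Values were multiples of 0.5 (37.0% not whole) and were rounded for the count models. Of 22898 genes matched by name and chromosome, 4.34% began within 2000 bp of their GRCh38 start and 42 rows carried contig names of hg19, so table positions are printed as hg19. Per the labels' protocols RNA was isolated with TRIzol and RNeasy columns and polyA mRNA libraries were made with a KAPA kit.

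Genes were filtered with filterByExpr (15643 left), scaled by TMM and tested with edgeR 4.0.16 in R 4.3.3 (quasi-likelihood, genotype alone, 2 residual degrees of freedom, Benjamini-Hochberg, threshold 0.05). The script was tested on simulated data for this comparison: among 15643 genes, 98.5% of 200 genes changed by 1 on the log2 scale were called. These 200 were drawn from genes above 5 CPM in WT, so the rate does not cover genes at lower levels. Far fewer genes were changed in the simulation than passed in the data. An SE is the log2 fold change over the square root of F. Libraries of 17838204 to 21797850 counts put 3 counts at 0.137 to 0.17 CPM. Lengths are from GENCODE 29 and promoters from RefSeq. Counting ratios have 95% Clopper-Pearson intervals.

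Members and lists were chosen with earlier results of these data known. Named genes were all members and all of lists of 5 or fewer. In longer lists they were up to 3 per direction with the largest change (at least 1 CPM in the higher group, no overlap). The gene with the highest mean CPM over the 4 libraries, not scaled to length, was added. Gene symbols of 5 listed genes were matched through RefSeq synonyms. Alternatives were other scaling factors, DESeq2 1.42.0, limma-voom 3.58.1, no low-count filter, rounding down, a replicate block and leaving out each library.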

Additional observations from a re-analysis of the deposited data

How the results depend on the processing

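Of the 8 members in the fit, the 7 other than CNTN5 kept their sign under all 11 alternatives. When single libraries were left out, log2 fold changes ranged from 4.17 to 4.68 for CNTN6, 0.45 to 0.66 for CNTN4, -1.15 to -1.04 for NCAM1, -0.98 to -0.75 for NCAM2, -0.88 to -0.72 for CNTN1, -0.91 to -0.52 for L1CAM and -3.48 to -1.68 for CNTN2. In such a fit the lone library of a genotype is assumed to vary like the other group. Among the 67 listed genes, 680 of 737 values kept their side of the threshold, 41 lost it, 16 gained it and 0 reversed. The genes called over the whole table numbered 3427 higher and 3492 lower, and 2386 and 2543 with DESeq2. The labels' replicate numbers are not said to mark a shared culture, and deviations of same-numbered libraries did not go together (r = -0.04 across 11980 genes). With the replicate number as a block, 3050 genes were higher and 3154 lower. The share of member promoters with the AP-2 letters was 26.7% in the part before the start alone, against 19.8% of all windows. CHL1 and CNTN3 were limited by depth.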
